A study of Mus musculus with 6 samples.

Results

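Integrins are surface receptors that join the cell to the extracellular matrix, and each is a pair of 1 alpha and 1 beta subunit. The alpha subunit largely sets which ligand is bound, and the short tail of the beta subunit binds talin and kindlin, which switch the receptor on and tie it to actin. In the embryonic cortex they are known for holding radial glia to the laminin-rich basement membrane under the meninges and for adhesion of migrating neurons. Here 10 integrin subunit genes were followed by name, namely Itga3, Itga4, Itga5, Itga6, Itga8, Itga9, Itgav, Itgb1, Itgb5 and Itgb8. They are 10 of the 34289 genes listed in the series and 10 of the 26 subunit genes of the mouse family, and the other 16 are given further on as a comparison.

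The libraries were made from cortical neurons that had left the cell cycle, taken from mouse embryos at E14.5. The mutant group was homozygous for loss of Rp58 (Rp58-/-), and the control group carried both copies (Rp58+/+). Each group had 3 libraries. RP58, now named ZBTB18, is a transcriptional repressor with zinc fingers that cortical neurons need in order to mature. No other allele, transgene or agent is named, the cell type is labelled as neuron without the means of isolation, and it is not stated that libraries of 1 genotype were from different embryos. What the p-values measure is the spread among these libraries, which may be technical. In such bulk RNA, fewer cells of a type and less RNA per cell cannot be told apart.

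Total estimated counts ran from 34645505 to 75892649 per library. By the deposited effective lengths the libraries fell into 2 sets of 3 that cross the genotypes unevenly. In mutant 1, mutant 2 and control 1 a long transcript exceeded its effective length by exactly 249 bases (the fixed-length set), and in mutant 3, control 2 and control 3 by 133.7 to 139.2 bases (the estimated-length set). Mitochondrial transcripts made up 3.58% to 5.15% of fixed-length libraries but 16.4% to 17.5% of estimated-length libraries. Levels are CPM, counts scaled by the normalised library size, and the test below carries a term for the set. Zbtb18 itself was at 46.7, 45.7 and 538 CPM in mutants 1, 2 and 3, against 1902, 1587 and 1697 CPM in controls 1, 2 and 3 (log2 fold change -3.48 ± 0.81 SE, edgeR adjusted p = 0.0337, and 0.4 with no set term). Mutant 3 thus held far more Zbtb18 RNA than the other mutants, for a reason that was not tested, and the main results are also given without it. The pan-neuronal markers Tubb3, Dcx, Map2, Stmn2, Rbfox3, Neurod6, Gap43 and Elavl3 summed to between 4660.03 and 7709 CPM in mutant libraries and between 5899 and 9537 CPM in control libraries, so markers of the labelled cell type were abundant in every library.

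Of the 10 subunits, 7 rose in mutant neurons, none fell and 3 did not pass the test (edgeR quasi-likelihood test with a set term, Benjamini-Hochberg adjusted p under 0.05). In the same fit 14.9% of all 16985 genes tested were called, 7.92% as higher in mutants and 7.01% as lower. The subunits that rose were Itga3, Itga4, Itga5, Itga6, Itga8, Itgav and Itgb8, which are 6 alpha chains and 1 beta chain. Itgb1, the beta chain that pairs with Itga3, Itga4, Itga5, Itga6, Itga8 and Itga9, did not pass the test and had a log2 fold change of -0.0016. The median log2 fold change of the 10 was 1.30, and that of all genes tested was -0.0008. All 10 passed the filter on low counts, Itga5 through its level in mutants and Itgb5 through its level in controls, where 3 libraries each lay above the filter's 0.203 CPM against 1 of the other genotype. In 6 of the 10 every mutant library was above every control library, which held for 8.8% of all genes tested. The 10 genes were chosen with earlier results of these data known, so these contrasts with all genes are a description only.

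The calls rested on the set term. In the edgeR fit without it 0 of the 10 were called and 4 had an unadjusted p under 0.05, while 2.36% of all genes were called. The common biological coefficient of variation was 0.186 with the term and 0.701 without it. Leaving out mutant 3, the mutant library with the most remaining Zbtb18 RNA, 3 of the 10 were called, namely Itga4, Itga6 and Itga8. In that fit 1557 genes in all were called, against 2537 with all libraries. The estimated-length set then held no mutant, so the genotype effect came from mutants 1 and 2 against control 1 alone. That fit therefore cannot tell remaining Zbtb18 RNA from the change in the libraries compared. The log2 fold changes of the 4 that lost the call were then 1.25 for Itga3, 1.67 for Itga5, 0.90 for Itgav and 1.30 for Itgb8.

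**Figure D1:**
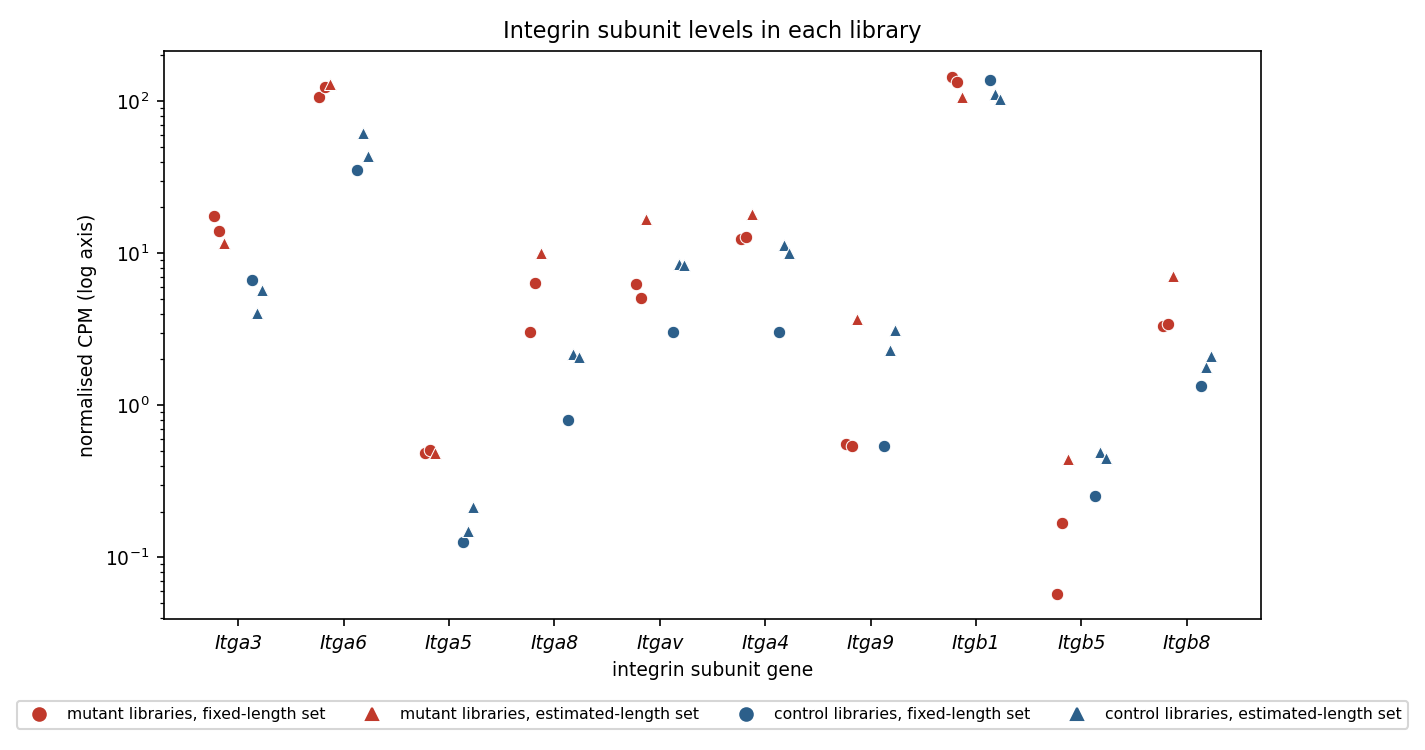
Level of each of the 10 integrin subunit genes in every library, as normalised CPM on a log axis, with mutant libraries in red left of control libraries in blue, and circles for the fixed-length and triangles for the estimated-length set. Itga6 sits between 107 and 128 CPM in mutants and between 35.3 and 61.5 CPM in controls, while the points of Itgb1 lie at like heights in both.

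The start-site regions of 4 subunit genes are printed as examples, chosen by their values or motifs. Itga8 had the largest rise, Itgb8 was the beta chain that rose, Itgb1 was the beta chain with a fold change nearest 0, and the Itga5 window held the longest of the motifs searched. The motifs were ACATCTG, a core sequence known for binding by RP58, its last 6 letters CATCTG, and CANNTG. The last is the E-box bound by neurogenic helix-loop-helix factors, and each motif was searched on both strands. Every ACATCTG holds a CATCTG and every CATCTG holds a CANNTG. The windows are from RefSeq on GRCm38.p6, run 5′ to 3′ on the gene's strand from 250 bases before to 50 bases after the start, and have motif matches in capitals.
Itga8, chr2:12301895-12302194, minus strand: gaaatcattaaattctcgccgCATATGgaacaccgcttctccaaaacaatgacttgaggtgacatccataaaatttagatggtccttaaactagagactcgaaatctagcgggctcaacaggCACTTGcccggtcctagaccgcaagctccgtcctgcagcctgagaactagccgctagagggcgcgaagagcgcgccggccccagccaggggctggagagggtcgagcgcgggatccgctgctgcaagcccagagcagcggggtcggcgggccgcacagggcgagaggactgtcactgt
Itgb8, chr12:119238227-119238526, minus strand: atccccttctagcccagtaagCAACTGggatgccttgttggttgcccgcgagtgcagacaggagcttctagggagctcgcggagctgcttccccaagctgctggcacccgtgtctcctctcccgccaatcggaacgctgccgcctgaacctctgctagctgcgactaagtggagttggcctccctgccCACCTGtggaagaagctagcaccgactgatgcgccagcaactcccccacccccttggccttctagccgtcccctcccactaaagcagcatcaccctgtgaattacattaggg
Itga5, chr15:103366742-103367041, minus strand: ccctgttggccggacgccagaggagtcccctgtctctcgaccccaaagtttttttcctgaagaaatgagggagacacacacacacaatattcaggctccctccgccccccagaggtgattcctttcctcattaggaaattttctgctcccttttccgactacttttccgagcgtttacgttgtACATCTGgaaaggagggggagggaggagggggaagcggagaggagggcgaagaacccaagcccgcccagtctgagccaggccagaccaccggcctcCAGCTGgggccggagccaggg
Itgb1, chr8:128685404-128685703, plus strand: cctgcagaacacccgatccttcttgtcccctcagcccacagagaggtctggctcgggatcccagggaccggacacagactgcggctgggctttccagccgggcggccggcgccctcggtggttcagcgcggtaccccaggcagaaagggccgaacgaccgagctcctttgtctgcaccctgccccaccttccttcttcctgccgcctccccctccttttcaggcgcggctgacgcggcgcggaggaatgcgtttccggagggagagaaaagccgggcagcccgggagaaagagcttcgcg
RefSeq windows were found for 9 of the 10 subunits, the exception being Itga6, and Itga3 had 2, which makes 10 windows. ACATCTG was in 1 of these 10 windows, that of Itga5 at 67 bases before the start (position -67), and in 4.43% of the 32851 promoters of the same length. CATCTG was in 1 of the 10 and in 17.2% of all promoters. CANNTG was in 8 of the 10, the exceptions being Itgav and Itgb1, and in 72.3% of all promoters. The windows with the most CANNTG, 3 each, were those of Itga9 and Itgb5, which were not called, while Itgav, which rose, had 0. The Itga8 window held CANNTG as CATATG and CACTTG, and the Itgb8 window as CAACTG and CACCTG. These matches are letters in a window, not measured sites.

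The laminin receptors Itga6 and Itga3 both rose in mutants. Itga6 pairs with Itgb1 or Itgb4 and binds laminins of the basement membrane. It was at 107, 123 and 128 CPM in mutants 1, 2 and 3, against 35.3, 61.5 and 43.8 CPM in controls 1, 2 and 3. Every mutant library was above every control library, and the spread within either genotype was smaller than the gap between their means of 119 ± 11 and 46.9 ± 13 CPM (SD, n = 3 each). This was a log2 fold change of 1.49 ± 0.17 (SE), a 2.81-fold rise, with an edgeR adjusted p of 0.00194. Within the fixed-length set alone it was 1.70 (adjusted p = 0.0107) and within the estimated-length set alone 1.28 (adjusted p = 0.0193), in an edgeR fit that pools the spread over both sets. Itga6 kept its call when any 1 of the 6 libraries was left out, with an adjusted p of at most 0.022.

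Itga3 pairs with Itgb1, binds laminins and is known in cortex for neuron and radial glia adhesion during migration. Its level was 17.7, 14.0 and 11.7 CPM in mutants 1, 2 and 3, against 6.61, 4.05 and 5.69 CPM in controls 1, 2 and 3. The lowest mutant library stood well above the highest control library. The log2 fold change was 1.26 ± 0.19 (SE; 2.39-fold), with an edgeR adjusted p of 0.00623, and it was 1.25 and 1.26 within the fixed-length and estimated-length sets. Without mutant 3 the edgeR adjusted p was 0.061.

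Among the subunits whose receptors bind the short RGD sequence of fibronectin, vitronectin, nephronectin or latent TGF-beta, Itga8, Itga5 and Itgav all rose. Itga8, which pairs with Itgb1 and binds nephronectin, had the largest fold change of the 10 genes. It was at 3.05, 6.38 and 10.04 CPM in mutants 1, 2 and 3, against 0.795, 2.17 and 2.08 CPM in controls 1, 2 and 3. The groups did not overlap, although mutant 2 and mutant 3 were well above mutant 1 and control 1 was well below controls 2 and 3. Itga8 had a log2 fold change of 2.34 ± 0.33 (SE; 5.08-fold), with an edgeR adjusted p of 0.00453. It was 2.51 (adjusted p = 0.0422) within the fixed-length and 2.22 (adjusted p = 0.0326) within the estimated-length set. Like Itga6, Itga8 kept its edgeR call when any 1 library was left out, with a highest adjusted p of 0.0483.

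Itga5, the alpha chain of the classical fibronectin receptor, was expressed at a low level. It had 25, 27 and 24 counts in mutants 1, 2 and 3, against 4, 10 and 9 counts in controls 1, 2 and 3, which is 0.482, 0.505 and 0.486 CPM against 0.127, 0.149 and 0.213 CPM. The groups were apart, with mutant libraries within a narrow range. Its log2 fold change was 1.43 ± 0.32 (SE; 2.70-fold), with an edgeR adjusted p of 0.0292. That call was lost in each of the 6 fits that left out 1 library, where the adjusted p ran from 0.0787 to 0.21, and under DESeq2. Itga5 had also passed the filter on low counts only through its mutant libraries, where its level was higher.

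Itgav, which pairs with Itgb1, Itgb3, Itgb5, Itgb6 and Itgb8 and frees TGF-beta from its latent complex, was at 6.27, 5.09 and 16.9 CPM in mutants 1, 2 and 3, against 3.02, 8.47 and 8.36 CPM in controls 1, 2 and 3. The genotypes overlapped over all 6 libraries but not within a set, since both genotypes were lower in the fixed-length set. With the set term the log2 fold change was 0.95 ± 0.15 (SE; 1.94-fold, edgeR adjusted p = 0.00835), and it was 0.90 in fixed-length and 0.999 in estimated-length libraries. The adjusted p was 0.0914 without mutant 3 and 0.161 when the fit allowed for the effective length of the gene in each library.

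Itga4 and Itga9 are close relatives that both pair with Itgb1 and bind VCAM1, and only Itga4 was called. Itga4 was at 12.4, 12.8 and 18.0 CPM in mutants 1, 2 and 3, against 3.05, 11.3 and 10.02 CPM in controls 1, 2 and 3. Every mutant was above every control, with controls 2 and 3 close below mutant 1 and control 1 far below. Over both sets the log2 fold change was 1.35 ± 0.30 (SE; 2.55-fold, edgeR adjusted p = 0.0265), with 2.03 among fixed-length and 0.75 among estimated-length libraries. The difference between the sets had an edgeR p of 0.00356 and an adjusted p of 0.309, and 0.153% of all genes passed that test. The Itga4 log2 fold change was 0.77 without control 1 and 2.03 without mutant 3, and the edgeR adjusted p was 0.0655 without mutant 1 and 0.0715 without control 3.

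Itga9, a receptor for tenascin-C as well, was at 0.560, 0.542 and 3.68 CPM in mutants 1, 2 and 3, against 0.540, 2.32 and 3.13 CPM in controls 1, 2 and 3. It was low in all fixed-length libraries and higher in all estimated-length libraries of both genotypes. The log2 fold change was 0.27 ± 0.25 (SE), with a 95% interval of -0.33 to 0.86 and an edgeR adjusted p of 0.53. The test of a difference between Itga4 and Itga9 was not run.

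Of the 3 beta chains, Itgb8 was called and Itgb1 and Itgb5 were not, and differences between the chains were not tested. Itgb1, the common partner, was at 145, 134.2 and 106 CPM in mutants 1, 2 and 3, against 138, 110 and 103 CPM in controls 1, 2 and 3. The genotypes overlapped throughout. Its log2 fold change was -0.0016 ± 0.079 (SE), with an edgeR adjusted p of 0.994. Its 95% interval ran from -0.19 to 0.19, which is 0.877-fold to 1.14-fold.

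Itgb8 pairs with Itgav alone, has a tail unlike those of the other beta chains and activates latent TGF-beta. It is known in the embryonic brain for its part in vessel growth. Its level was 3.30, 3.40 and 7.07 CPM in mutants 1, 2 and 3, against 1.34, 1.77 and 2.11 CPM in controls 1, 2 and 3. No control library reached the lowest mutant library. The log2 fold change was 1.59 ± 0.21 (SE; 3.02-fold), with an edgeR adjusted p of 0.00378, and it was 1.30 within the fixed-length and 1.85 within the estimated-length set. Without mutant 3 the edgeR adjusted p was 0.0606. Itgb8 divided by its partner Itgav, per kb of effective length, was 0.178, 0.349 and 0.315 in mutants 1, 2 and 3, against 0.157, 0.134 and 0.159 in controls 1, 2 and 3.

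Itgb5, the other partner of Itgav among the 10 and part of a vitronectin receptor, was near the limit of detection. It had 3, 9 and 22 counts in mutants 1, 2 and 3, against 8, 33 and 19 counts in controls 1, 2 and 3. The counts overlapped, and at this depth the log2 fold change of -0.41 ± 0.41 (SE) left a 95% interval from -1.39 to 0.57 (edgeR adjusted p = 0.559).

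**Figure D2:**
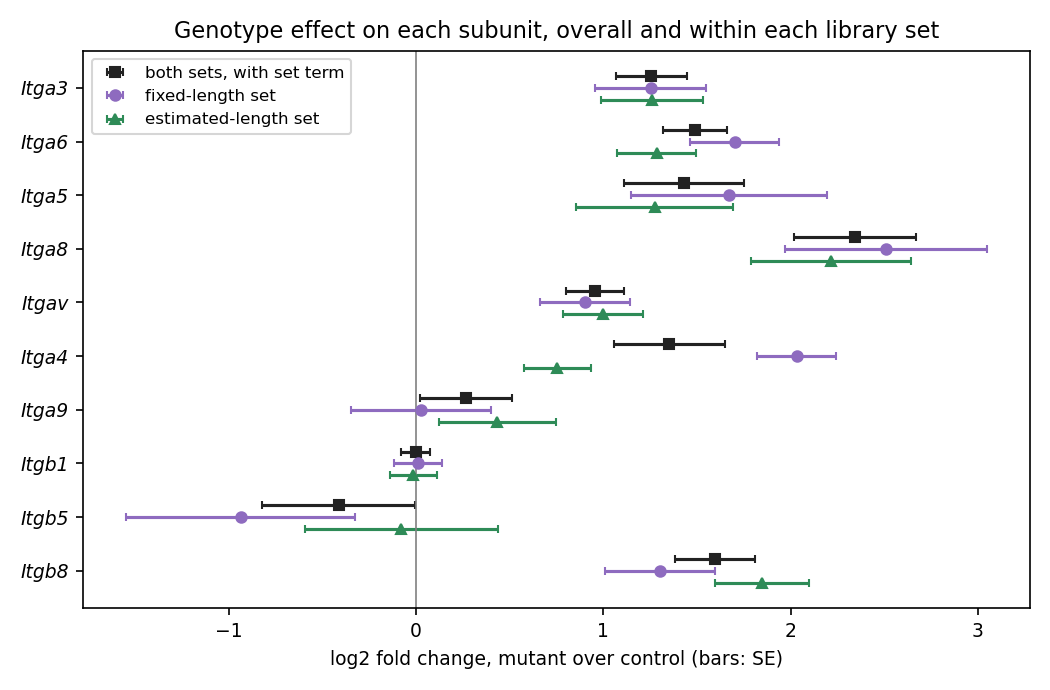
Log2 fold change of mutant over control for the 10 subunits, from the edgeR fit on both sets with a set term (black squares) and within the fixed-length (purple circles) and estimated-length set (green triangles), with SE as bars. Of the 7 that were called, all lie right of 0 in both sets, Itga4 with 2.03 and 0.75 has the widest gap between sets, and Itgb1 lies at 0.

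In the fixed-length set 4 of the 10 subunits were called, Itga4, Itga6, Itga8 and Itgb8, where 6.05% of all genes were called as higher and 3.41% as lower. In the estimated-length set 5 were called, Itga3, Itga6, Itga8, Itgav and Itgb8, where 4.6% of all genes were called as higher and 3.32% as lower. All of these calls were rises. Each set holds 1 genotype as a single library, which is assumed to vary like the others.

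Set against Itgb1 in the same library, alpha subunit RNA was more abundant in mutants of each set. Levels per kb divide the counts of each transcript by its effective length. Summed over the 7 alpha genes, the level per kb was 1.30, 1.55 and 2.33 times that of Itgb1 in mutants 1, 2 and 3, against 0.519, 1.28 and 1.16 times in controls 1, 2 and 3. The lowest mutant value lay just above the highest control value. Counting protein-coding transcripts alone, the same ratio was 0.412, 0.509 and 1.17 in mutants 1, 2 and 3, against 0.141, 0.571 and 0.542 in controls 1, 2 and 3. The genotypes then overlapped over all libraries, though not within either set. These ratios are a description and were not tested.

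**Figure D3:**
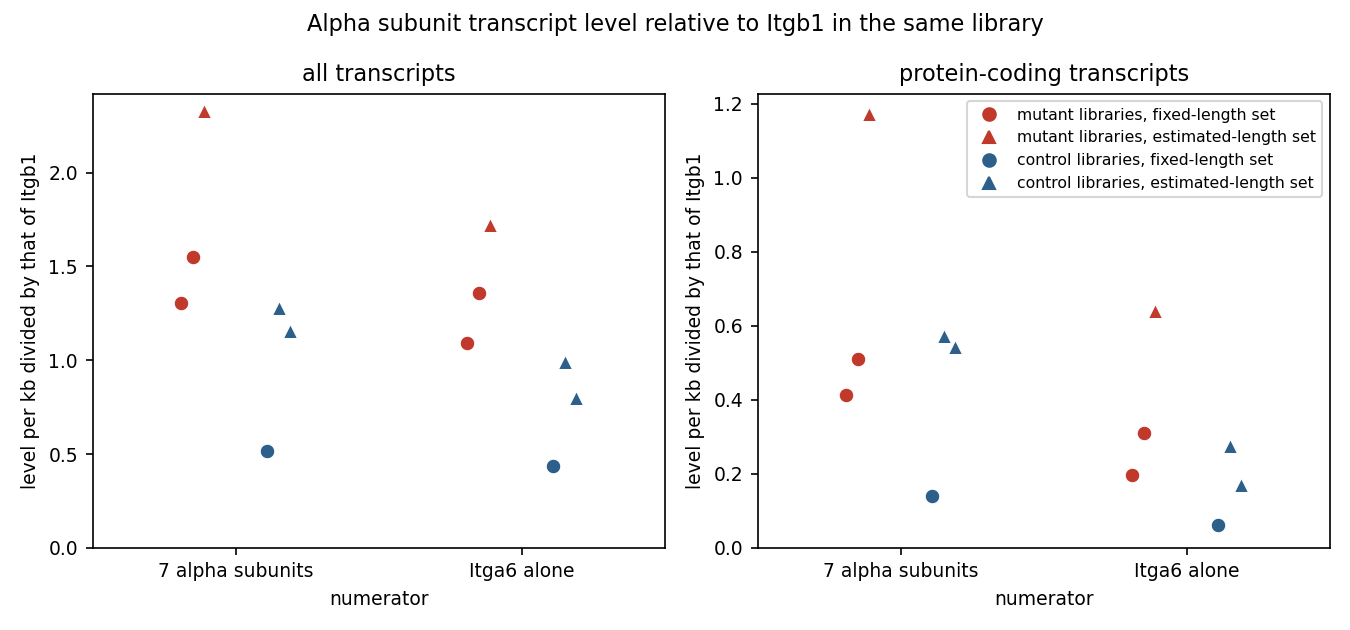
Level per kb of the 7 alpha subunits together and of Itga6 alone, divided by the level per kb of Itgb1 in the same library, for all transcripts and for protein-coding transcripts, with mutant libraries in red left of control libraries in blue. For all transcripts the 7 together lie between 1.30 and 2.33 in mutants and between 0.519 and 1.28 in controls.

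With all transcripts counted, most of that alpha subunit RNA was Itga6. On the per-kb scale Itga6 was at 45.0, 52.2 and 58.3 CPM per kb in mutants 1, 2 and 3, above the 41.3, 38.5 and 34.0 CPM per kb of Itgb1 in the same libraries. In controls 1, 2 and 3 Itga6 was at 17.1, 32.7 and 24.7 CPM per kb, below the 39.1, 33.0 and 30.8 CPM per kb of Itgb1. The order of these leading subunits was thus opposite between the genotypes when every transcript was counted, and control 2 had them nearly equal. With protein-coding transcripts alone, Itga6 averaged 11.03 ± 3.2 CPM per kb in mutants and 4.47 ± 2.3 CPM per kb in controls (SD, n = 3 each). On that scale Itgb1 averaged 32.6 ± 9.2 CPM per kb in mutants and 29.2 ± 7.6 CPM per kb in controls, so Itga6 was then below Itgb1 in both genotypes.

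The other subunits were at much lower levels per kb. In mutants they followed in the order Itga3 at 3.49 ± 0.42, Itga8 at 2.52 ± 2.56, Itgav at 2.48 ± 1.19, Itga4 at 1.97 ± 1.02 and Itga9 at 1.74 ± 2.58 CPM per kb (SD, n = 3). In controls the order was Itga9 at 2.67 ± 2.40, Itgav at 2.05 ± 0.88, Itga3 at 1.28 ± 0.23, Itga4 at 0.984 ± 0.585 and Itga8 at 0.872 ± 0.586 CPM per kb (SD, n = 3). Neighbours in these orders differed by less than the larger of their SDs. Itga6 and Itgb1 were far above the rest in every library. Itgb8 averaged 0.685 ± 0.414 CPM per kb in mutants and 0.304 ± 0.13 CPM per kb in controls, and Itga5 and Itgb5 stayed below 0.3 CPM per kb in every library.

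The 10 genes had 54 listed transcripts, of which 26 passed the filter, 1 rose and 0 fell, where 1.74% of all 42824 transcripts tested were called. The 1 that rose was Itga6-203, which the annotation gives as a processed transcript with no coding sequence. It was at 86.3, 84.3 and 58.0 transcript-level CPM in mutants 1, 2 and 3, against 27.1, 24.4 and 20.4 CPM in controls 1, 2 and 3. Every mutant library held more than 2 times the highest control value, with a log2 fold change of 1.51 ± 0.12 (SE) and an edgeR adjusted p of 0.0115. It took 70.5%, 62.8% and 49.0% of the Itga6 counts in mutants 1, 2 and 3, against 71.9%, 44.0% and 51.3% in controls 1, 2 and 3, so its share followed the library set more than the genotype. In each of the 6 fits that left out 1 library, 0 of these transcripts were called.

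The coding transcripts of Itga6 did not pass the test one by one. Itga6-202, the main coding transcript, was at 29.2, 40.6 and 38.0 transcript-level CPM in mutants 1, 2 and 3, against 7.79, 20.5 and 11.4 CPM in controls 1, 2 and 3. Its libraries did not overlap between genotypes, at a log2 fold change of 1.70 ± 0.36 (SE) and an edgeR adjusted p of 0.128. Itga6-201, the next coding transcript, had a log2 fold change of 1.52 ± 0.22 (SE) and an edgeR adjusted p of 0.0503. With coding transcripts alone summed to genes, the same 7 subunits were called at gene level.

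Other subunits used different transcripts in the 2 sets. Itgav counts went mostly to Itgav-202 in the fixed-length set, with 55.1% and 79.0% in mutants 1 and 2 and 68.4% in control 1. In the estimated-length set they went to Itgav-201, with 82.6% in mutant 3 and 86.1% each in controls 2 and 3. Both are coding transcripts, and the change of transcript went with the set in both genotypes. Of Itga8, the coding transcript Itga8-201 took 91.7%, 93.3% and 32.9% of the counts in mutants 1, 2 and 3, against 52.0%, 16.4% and 36.4% in controls 1, 2 and 3. The share of mutant 3 lay between those of controls 2 and 3, control 1 had 25 Itga8 counts, and no difference in share was tested. The coding Itga8 level per kb was 0.501, 1.23 and 0.580 CPM per kb in mutants 1, 2 and 3, against 0.0724, 0.0634 and 0.133 CPM per kb in controls 1, 2 and 3, and these did not overlap. Of Itgb1, the decay transcript Itgb1-202 took 3.89%, 4.08% and 23.3% of the counts in mutants 1, 2 and 3, against 2.32%, 15.9% and 13.6% in controls 1, 2 and 3, which again followed the set.

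**Figure D4:**
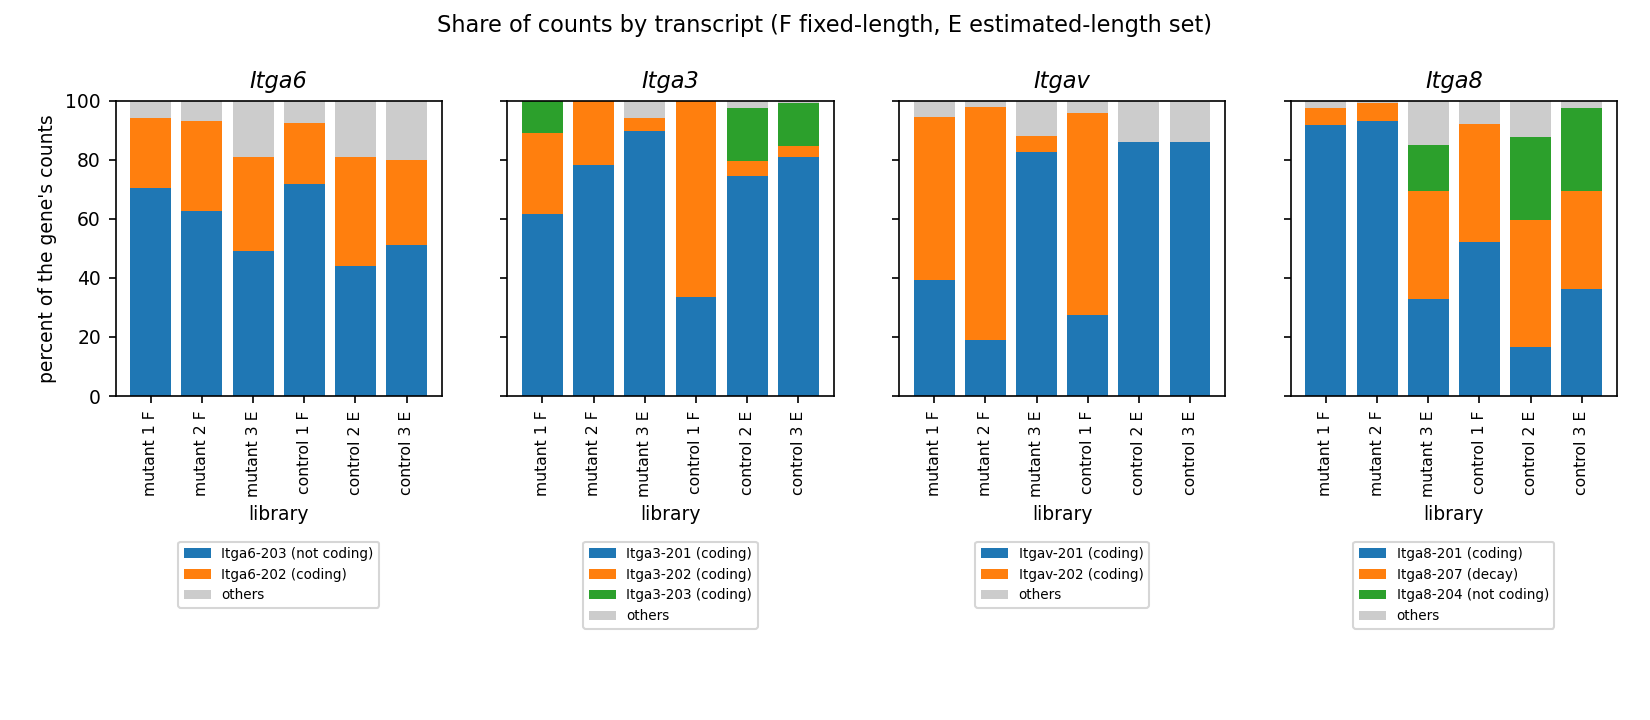
Share of the counts of Itga6, Itga3, Itgav and Itga8 that went to each main transcript in every library, in percent, with mutant libraries left of control libraries and F or E marking the fixed-length or estimated-length set. Itgav changes from Itgav-202 to Itgav-201 between the sets in both genotypes, while Itga8-201 takes 91.7% and 93.3% in mutants 1 and 2 and 52.0% in control 1.

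None of the other 16 subunit genes was called. Of these, 9 passed the filter, 0 had an unadjusted p under 0.05 in edgeR, and DESeq2 also called 0. The share called among all genes tested was 14.9%, so 0 of 9 says little about these genes. The most abundant was Itgb4, the second beta partner of Itga6, at 0.965, 1.53 and 2.23 CPM in mutants 1, 2 and 3, against 1.72, 2.26 and 2.53 CPM in controls 1, 2 and 3 (log2 fold change -0.27 ± 0.26 SE, edgeR adjusted p = 0.552). The 16 together summed to between 3.995 and 10.8 CPM in mutant libraries and between 5.15 and 10.1 CPM in control libraries. Itgax, an alpha chain of leukocytes, had a rounded count of 0 in every library. Differences between these 16 and the 10 genes were not tested, and the 10 were chosen with earlier results known.

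Laminin chains, the ligands of Itga3 and Itga6, changed in both directions. Of 13 laminin and nidogen genes, 11 were tested, 4 rose and 2 fell, and the median log2 fold change was 0.86. Over all genes tested, 7.92% rose and 7.01% fell. Lama5, the alpha chain of basement membrane laminins and a ligand of Itga3 and Itga6, was at 8.07, 18.5 and 22.3 CPM in mutants 1, 2 and 3, against 0.0636, 3.13 and 3.20 CPM in controls 1, 2 and 3. All mutants were above all controls (log2 fold change 3.95 ± 0.81 SE, edgeR adjusted p = 0.021), and the call was lost without mutant 1, control 2 or control 3, where the highest adjusted p was 0.0631. Control 1 had almost no Lama5 RNA, and without mutant 3 the log2 fold change was 7.0003. When the fit allowed for effective length, the Lama5 log2 fold change was 1.56 and the edgeR adjusted p was 0.105.

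Lamc1, the gamma chain of most laminins, was at 41.3, 56.8 and 89.0 CPM in mutants 1, 2 and 3, against 26.0, 49.3 and 51.9 CPM in controls 1, 2 and 3. The libraries overlapped between the sets but not within one, at a log2 fold change of 0.86 ± 0.13 (SE; edgeR adjusted p = 0.00686). The call did not hold without mutant 3 or control 1, with a highest adjusted p of 0.0681. Lamb1, the beta chain that partners it, fell to 21.1, 18.8 and 36.0 CPM in mutants 1, 2 and 3, against 61.5, 93.4 and 82.2 CPM in controls 1, 2 and 3. The genotypes were well apart, and the log2 fold change of -1.45 ± 0.11 (SE; edgeR adjusted p = 0.000393) was called in every fit that left out 1 library. Lama1, an alpha chain of early basement membranes, had a log2 fold change of -0.91 ± 0.21 (SE; edgeR adjusted p = 0.0306), a call that held in only 1 of the 6 fits that left out 1 library, where the adjusted p reached 0.183.

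Of 20 other ligand genes, which include RGD-bearing matrix proteins, VCAM1 and the TGF-beta genes, 14 were tested. Of these, 3 rose and 2 fell, against 7.92% and 7.01% of all genes tested, and the median log2 fold change was 0.45. Fn1, which encodes fibronectin, the ligand of Itga5, fell to 3.90, 6.38 and 4.11 CPM in mutants 1, 2 and 3, against 25.4, 28.0 and 34.9 CPM in controls 1, 2 and 3. The groups were far apart (log2 fold change -2.60 ± 0.25 SE, edgeR adjusted p = 0.000979), and Fn1 was also called in the fit with no set term. Thbs1, the matrix protein thrombospondin-1, was at 2.28, 2.28 and 3.02 CPM in mutants 1, 2 and 3, against 4.93, 24.0 and 22.1 CPM in controls 1, 2 and 3. It too was lower in every mutant library than in any control (log2 fold change -2.03 ± 0.41 SE, edgeR adjusted p = 0.021), though not called without control 2 or control 3, where the highest adjusted p was 0.0604. Without mutant 3 the Thbs1 log2 fold change was -1.10.

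The ligands of Itgav that rose were Tgfb3, Edil3 and Mfge8. Tgfb3, whose latent complex is a substrate of Itgav with Itgb8, was at 8.30, 8.10 and 4.96 CPM in mutants 1, 2 and 3, against 3.21, 2.16 and 1.66 CPM in controls 1, 2 and 3. No libraries overlapped, at a log2 fold change of 1.35 ± 0.19 (SE; edgeR adjusted p = 0.00428), and the call held without any 1 library. Edil3, a secreted RGD protein, was at 285, 245 and 259 CPM in mutants 1, 2 and 3, against 148, 178 and 186 CPM in controls 1, 2 and 3. It was higher in each mutant (log2 fold change 0.67 ± 0.11 SE, edgeR adjusted p = 0.0104), and the adjusted p was 0.101 without control 1. Mfge8, its relative that links apoptotic cells to phagocytes, had a log2 fold change of 1.30 ± 0.27 (SE; edgeR adjusted p = 0.0236) and kept its call in 2 of the 6 fits that left out 1 library, where the adjusted p reached 0.175. Reln, which encodes reelin and was the most abundant of the ligand genes, was not called (log2 fold change 0.25 ± 0.16 SE, edgeR adjusted p = 0.357). In the edgeR fit with no set term, 2 of all the ligand genes were called, Fn1 among them.

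Inside the cell, 6 of 31 tested activator and adaptor genes rose and 0 fell, of 32 listed, with a median log2 fold change of 0.19. Among all genes tested 7.92% rose and 7.01% fell. Tln2, a talin that activates integrins through the beta tail, was at 45.5, 60.9 and 138 CPM in mutants 1, 2 and 3, against 13.1, 44.8 and 43.4 CPM in controls 1, 2 and 3. Each mutant library was above each control library, mutant 1 by little (log2 fold change 1.82 ± 0.15 SE, edgeR adjusted p = 0.000487). Tns3, a tensin that links beta tails to actin, was at 9.40, 7.80 and 14.54 CPM in mutants 1, 2 and 3, against 0.795, 2.19 and 3.01 CPM in controls 1, 2 and 3 (log2 fold change 2.86 ± 0.28 SE, edgeR adjusted p = 0.00101). Both calls held when any 1 library was left out. Dock1, which activates Rac downstream of integrins, had a log2 fold change of 1.49 ± 0.20 (SE; edgeR adjusted p = 0.00414), and an adjusted p of 0.0627 without mutant 3. The others that rose were Zyx, Actn1 and Fermt2, and the most abundant adaptor, Rapgef1, was not called (log2 fold change -0.06 ± 0.08 SE, edgeR adjusted p = 0.678). With no set term edgeR called 0 of the adaptors, 4 of which had an unadjusted p under 0.05.

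None of 8 tested kinase genes was called by edgeR, of 10 listed, although 4 had an unadjusted p under 0.05 and DESeq2 called 2 as higher and 1 as lower. Among all genes tested edgeR called 14.9%, so 0 of 8 says little about this list. The most abundant, Fyn, a Src family kinase, had a log2 fold change of 0.11 ± 0.08 (SE; edgeR adjusted p = 0.428). Ptk2, the gene of focal adhesion kinase, had 1 listed transcript, at 0 in every library, and is not reported further. Of 10 genes for proteins that sit beside integrins in the membrane, all tested, 2 rose and 1 fell, against 7.92% and 7.01% of all genes. Cd63, a tetraspanin of late endosomes, was at 48.4, 35.6 and 8.69 CPM in mutants 1, 2 and 3, against 15.3, 3.36 and 3.15 CPM in controls 1, 2 and 3. The genotypes overlapped between sets but not within one (log2 fold change 1.43 ± 0.15 SE, edgeR adjusted p = 0.00121). Cav1, a coat protein of caveolae, had a log2 fold change of 1.42 ± 0.27 (SE; edgeR adjusted p = 0.0154), and Slc3a2, the heavy chain of an amino acid transporter that binds beta tails, one of -0.40 ± 0.09 (SE; edgeR adjusted p = 0.0279). Cav1 and Slc3a2 each kept the call in 2 of the 6 fits that left out 1 library, where the highest adjusted p was 0.122 for Cav1 and 0.217 for Slc3a2. When the fit allowed for effective length, the Cav1 log2 fold change was 0.79 (edgeR adjusted p = 0.189). Bsg, the most abundant of the 10, was not called (log2 fold change -0.20 ± 0.09 SE, edgeR adjusted p = 0.215). With no set term 0 of these 10 were called by edgeR, and 1 had an unadjusted p under 0.05.

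**Figure D5:**
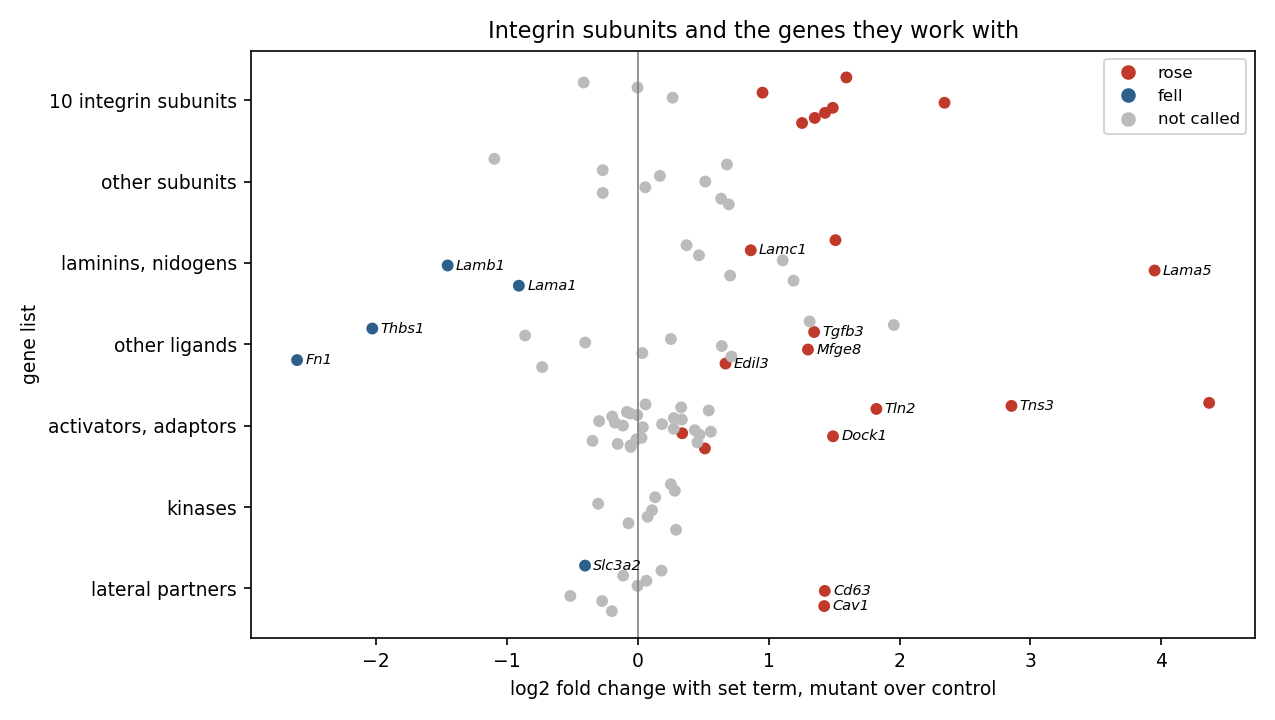
Log2 fold change of mutant over control, with the set term, for the tested genes reported here of the 10 subunits, the other subunits, laminins and nidogens, other ligands, activators and adaptors, kinases and lateral partners, coloured by the edgeR call. The subunits that rose lie between 0.95 and 2.34, while the called laminins drawn run from -1.45 to 3.95 and the other called ligands from -2.60 to 1.35, and the unlabelled adaptor furthest right is Zyx at 4.37.

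Markers of other cells that carry integrins were low, but some moved with the subunits. The 8 endothelial markers summed to 1.51, 1.63 and 5.41 CPM in mutants 1, 2 and 3, against 0.763, 2.43 and 2.77 CPM in controls 1, 2 and 3. Within each library set the sum was higher in every mutant than in any control. Of these markers, 1 of 4 tested rose, against 7.92% of all genes tested. That one was Kdr, the VEGF receptor, at 0.695, 0.486 and 1.58 CPM in mutants 1, 2 and 3, against 0.0636, 0.402 and 0.261 CPM in controls 1, 2 and 3 (log2 fold change 2.25 ± 0.36 SE, edgeR adjusted p = 0.00761). Kdr was not called in the edgeR fit with no set term or in that without mutant 3. Pecam1 and Cldn5, endothelial markers picked from the list after their values were seen, stayed at or below 0.709 and 0.142 CPM in all libraries. Mural markers summed to between 1.04 and 2.07 CPM in mutants and between 0.954 and 2.53 CPM in controls. Of these, 1 of 3 tested rose, Cspg4 (log2 fold change 1.57 ± 0.37 SE, edgeR adjusted p = 0.0358), against 7.92% of all genes tested. Only 1 of the 3 had a log2 fold change above 0, and their median was -0.54. Cspg4 too was not called in the edgeR fit with no set term or in that without mutant 3. The endothelial and mural sums lay far below the levels of Itga6 and below that of Itga3 in every library, while Itga5 was below both sums in every library. In controls 2 and 3 Itgb8 was below both sums and Itga8 was below the endothelial sum, and Itga8 was below the mural sum in controls 1 and 3. The part of these cells in the subunit values was not tested.

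Microglial markers summed to between 0.753 and 2.33 CPM in mutants and between 1.47 and 1.97 CPM in controls, with Ptprc at 0 in every library. Meningeal markers summed to between 1.35 and 1.94 CPM in mutants and between 0.699 and 1.66 CPM in controls. In edgeR 0 of the 2 tested microglial and 0 of the 3 tested meningeal genes were called, none had an unadjusted p under 0.05, and DESeq2 called none. The share called by edgeR among all genes tested was 14.9%, so these counts say little about either list. Cx3cr1 and Dcn, the most abundant of each list, had log2 fold changes of 0.31 ± 0.31 and 0.03 ± 1.24 (SE). The 6 interneuron markers summed to between 1.87 and 2.37 CPM in mutants and between 0.572 and 2.35 CPM in controls. Of these, 1 of 4 tested rose, Dlx5, against 7.92% of all genes tested.

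Radial glia, which use Itga6 and Itgb1 at their endfeet, had markers that moved both ways. All 8 were tested, and they summed to between 100.4 and 211 CPM in mutants and between 107 and 237 CPM in controls. Within each library set their sum was lower in every mutant than in any control. Of the 8, 3 rose and 3 fell, against 7.92% and 7.01% of all genes tested. Those that rose were the transcription factors Hes1, Pax6 and Sox2. Pax6 was at 30.0, 29.6 and 21.7 CPM in mutants 1, 2 and 3, against 8.46, 5.76 and 5.95 CPM in controls 1, 2 and 3 (log2 fold change 1.85 ± 0.10 SE, edgeR adjusted p = 9.3e-05). Those that fell were Fabp7, Slc1a3 and Vim, the last an intermediate filament gene with a log2 fold change of -0.64 ± 0.12 (SE; edgeR adjusted p = 0.014). Of the 8 pan-neuronal markers 1 rose, Rbfox3, and 4 fell, Stmn2, Gap43, Neurod6 and Dcx, against the same 7.92% and 7.01% of all genes tested. Stmn2 had a log2 fold change of -1.37 ± 0.09 (SE; edgeR adjusted p = 0.000217). The part of such cell markers in the subunit values was not tested.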

How the data were processed

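Per the labels, RNA of 3 mutant and 3 control samples was made into libraries with a stranded total RNA kit. Tools named in the submitters' processing notes are FastQC and kallisto, with the build mm9, and no version is given. Per the file headers, each deposited table lists 97251 transcripts with length and effective length in bases, an estimated count (reads assigned to the transcript, which need not be whole) and TPM (the authors' scaling by effective length and total). The deposited TPM values were not used for levels, because a single transcript had a TPM of 486662 to 531107 in each estimated-length library.

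Estimated counts were summed to 34289 genes by GENCODE vM21 symbols (84637 transcripts matched, 87.0%; the unmatched held 6.85% to 8.58% of counts) and rounded. Reads shared by overlapping genes or related subunits may be split by kallisto. Genes were tested with edgeR 4.0.16 (R 4.3.3): quasi-likelihood, TMM, filterByExpr, prior count 2, a term for library set, threshold 0.05 after Benjamini-Hochberg adjustment over all genes tested. The SE is the size of the log2 fold change divided by the square root of F. Separate and differing effects by set came from an interaction fit, and transcripts were tested alike. The sets were read from length minus effective length. Their origin is not stated. Alternatives were no set term, DESeq2 1.42.0, other size factors, no filter, coding transcripts, an effective-length offset and leaving out each library. Scripts were tested on simulated data. Promoter coordinates are RefSeq's, not those of the deposited files.

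The subunits and gene lists were chosen with earlier results of these data known. The genes named were Zbtb18, the 10 subunits and, from each other list, up to 3 called genes in each direction with the smallest p and the gene with the highest mean CPM. Zyx, Actn1, Fermt2, Itgax, Ptk2, Pecam1, Cldn5, Ptprc and the markers named as a list were chosen after their values were seen. Genes that the rule takes but that are named without values, or not named, are Hes1, Sox2, Fabp7, Slc1a3, Rbfox3, Gap43, Neurod6, Tubb3, Dlx5, Rgs5 and Gad2. A gene that the rule takes is not reported here, though the list counts include it.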

Additional observations from a re-analysis of the deposited data

Results flagged for a closer look

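Zyx, the gene of the focal adhesion protein zyxin, was looked at again because its genotype effect differed between the library sets. It was at 63.4, 65.3 and 29.3 CPM in mutants 1, 2 and 3, against 0.540, 2.93 and 3.96 CPM in controls 1, 2 and 3. The log2 fold change was 6.79 among fixed-length libraries and 3.09 among estimated-length libraries. Their difference, estimated-length minus fixed-length, was -3.71 (edgeR test of the interaction, adjusted p = 0.0365), and 0.153% of all genes tested passed that test. Control 1, the only control of the fixed-length set, had 17 Zyx counts, and its 0.540 CPM was well below the 2.93 and 3.96 CPM of controls 2 and 3. Mutant 3, the only mutant of the estimated-length set, also held 538 CPM of Zbtb18, against 46.7 and 45.7 CPM in mutants 1 and 2. The part of control 1 or of mutant 3 in the difference was not tested.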

How the results depend on the processing

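No paired analysis was possible because the replicate numbers only follow the order of deposition and pair nothing. Without the set term edgeR called 400 genes (270 higher, 130 lower), 0 of the 10 subunits, 2 ligand genes, 0 adaptor, kinase and partner genes and 0 integrin transcripts, against 2537, 7, 11, 9 and 1 with the term. DESeq2 called 3879 genes (1692 higher, 2187 lower) and 16 adaptor, kinase and partner genes. Leaving out 1 library, the count ran from 1294 (without control 1) to 3034 (without mutant 2) for all genes and from 3 (without mutant 3) to 6 for the subunits. It ran from 6 (without control 2 or control 3) to 10 for the ligands and from 5 (without mutant 3 or control 3) to 14 (without mutant 2) for adaptors, kinases and partners, and was 0 each time for integrin transcripts. The counts of all genes were 1557, 1410 and 1429 without mutant 3, control 2 and control 3, and that of ligands was 7 without mutant 1 or mutant 3. Of 32 single genes followed over 12 alternatives, 0 called results changed direction, 37 calls were lost without 1 library and 26 in the other alternatives, and 0 were gained. Other size factors moved the median of all genes by -0.026 on the log2 scale. Of the subunit calls, size factors, no filter and coding transcripts left all 7, DESeq2 lost Itga5 and the effective-length offset lost Itgav.

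Limits: each set holds 1 genotype as a single library, so separate set effects borrow their spread from the other libraries. Itga5 and Itgb5, with 33 counts or fewer per library, are limited by depth. Lists were described by counts and medians and not tested as sets.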
